A study of Mus musculus with 42 samples.

Results

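Neuropeptide precursors are the secretory proteins from which neurons cut their peptide transmitters. 10 of these genes were followed here, Sst, Npy, Cck, Vip, Penk, Pdyn, Tac1, Cartpt, Pnoc and Crh, most of them in use as markers of inhibitory neuron classes elsewhere in the brain. Every probe set that the annotation of the Affymetrix MOE430.2 array assigns to 1 of these symbols was taken, without regard to its values. That gave 11 of the 45101 probe sets on the array, 2 for Tac1 and 1 for each other gene, and 10 of the 18194 genes with a probe set of their own. RNA was measured in cells sorted by hand from mouse cerebellum, and the question the design poses is how expression differs between Purkinje cells and Stellate/Basket cells and how it changes with postnatal age.

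All animals carried the same Gad67-GFP bac transgene, in a strain given as CB6-Tg(Gad1-EGFP)G42Zjh/J, known as G42, and all are labelled male. The transgene puts green fluorescent protein in inhibitory neurons. Slices were held in AP5, CNQX and TTX, which block glutamate receptors and sodium channels, then digested with protease, and single cells were picked for fluorescence and soma size. Purkinje cells send the output of the cerebellar cortex to the deep nuclei, and Stellate/Basket cells inhibit them from within the molecular layer. Purkinje cells were sampled on postnatal days 3, 7 and 14 (P3, P7, P14) with 3 arrays per age, and on P21, P28, P35 and P56 with 4 per age. For Stellate/Basket cells the sampling was P14 (4 arrays), P21 (3), P28 (4), P35 (2) and P56 (2). A further Stellate/Basket column of P35 and another of P56 equalled the average of the remaining pair and was left out, so 40 of 42 deposited columns were used.

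A neuropeptide is made as a longer precursor that enters the secretory pathway, is cleaved by prohormone convertases, trimmed and often amidated, and is stored in large dense-core vesicles. The released peptide acts on G protein-coupled receptors, over longer distances and times than a fast transmitter such as GABA. In the cerebellar cortex, peptides are usually described as co-transmitters of inhibitory neurons and of incoming fibres.

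All levels are log2 values of a probe set as deposited. They run from 3.94 to 14.6 in these arrays, with array medians between 5.91 and 6.16. A level tells how a probe set differs between arrays, and levels of different probe sets were not compared. No detection calls were used, so a probe set near log2 5 may be at background. A gene was called changed when limma's moderated test gave a Benjamini-Hochberg adjusted p under 0.05 among the 17478 genes tested and the log2 difference was at least 1 in size. Differences are given with their standard error.

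The labels were set against marker genes before the members were read. In arrays labelled Purkinje, the mean of 12 Purkinje markers was 7.86 at P3 and 9.34 at P7, against 12.58 to 12.81 from P14 to P56. The mean of 10 molecular layer interneuron markers ran the other way, at 10.08 at P3 and 9.995 at P7 against 5.64 to 5.74 from P14 on. Kit, the receptor that marks these interneurons, read 9.62 ± 0.22 (SD, n = 3) at P3 in cells labelled Purkinje and 5.42 at P56. Single Purkinje markers were uneven in the early arrays. Calb1 ran from 4.46 to 11.68 at P3 and from 12.02 to 12.60 at P7, against a mean of 7.12 in Stellate/Basket P14 arrays. Pcp2 had means of 8.40 at P3 and 10.70 at P7, against 9.73 in those Stellate/Basket arrays. The 2 Stellate/Basket P56 arrays also stood apart, with interneuron markers at 6.46 against 9.95 to 10.81 at P14 to P35, and Purkinje markers at 11.71. In the earlier Stellate/Basket groups the Purkinje markers were between 8.74 and 10.33. Markers of astrocytes and Bergmann glia were at 7.46, 9.74, 10.60, 9.93 and 10.95 in Stellate/Basket arrays of P14, P21, P28, P35 and P56. The means of the Purkinje groups were between 6.62 and 7.60. Their highest single arrays were P35 replicate 1 at 8.48, P7 replicate 1 at 8.30 and P21 replicate 2 at 8.24. The arrays labelled Purkinje at P3 and P7 and Stellate/Basket at P56 thus go against their labels on the means of these lists, though Calb1 and Pcp2 were high at P7. Every value below that involves these 3 groups, for members and for other genes, rests on such arrays, and the part of the marker shifts in it was not tested. The cell type differences at P14 to P35 involve Stellate/Basket arrays with the Purkinje and glial marker levels given above. The part of those levels in the differences was not tested either. Xist, which is transcribed from an inactivated X chromosome, ran from 6.38 to 7.68 in 12 Purkinje arrays and from 10.68 to 12.75 in the other 13, while 14 of 15 Stellate/Basket arrays read 11.42 or more, although all mice are labelled male. In RNA from pooled cells, fewer cells of a type and less RNA per cell cannot be told apart.

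**Figure D1:**
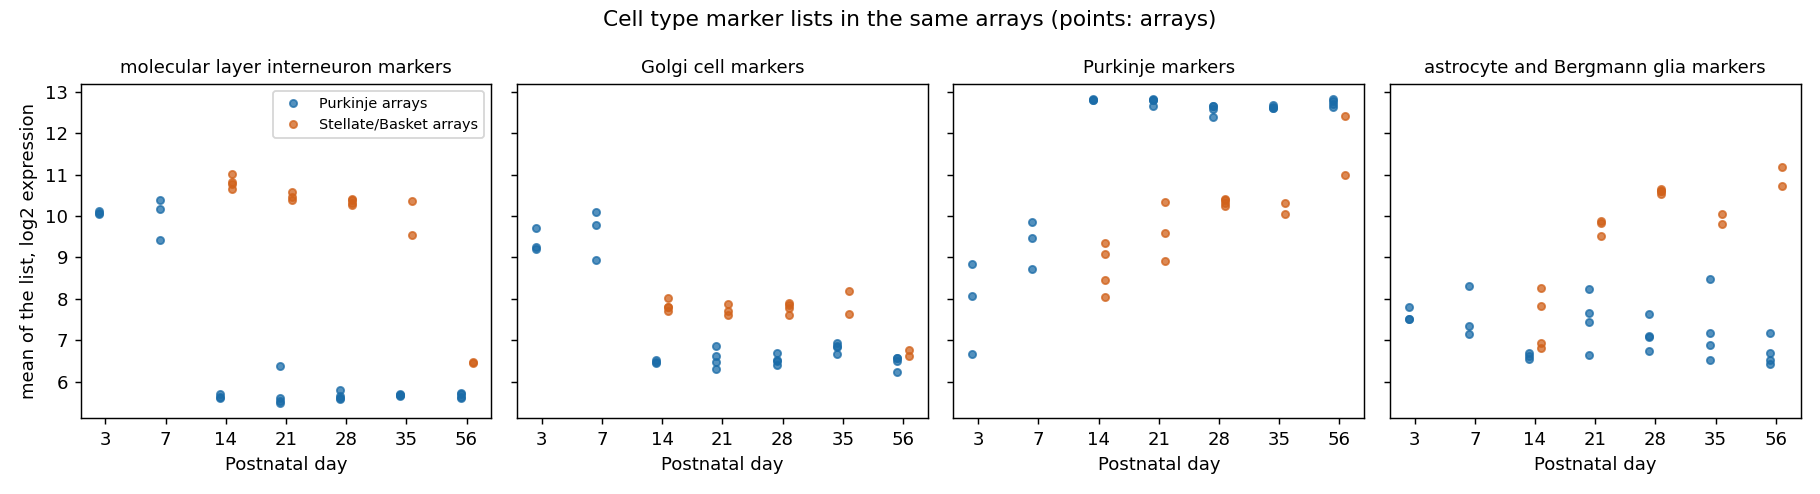
Mean log2 level of the marker lists (vertical axis) against postnatal age (horizontal axis), with 1 point per array and panels for interneuron, Golgi cell, Purkinje and glial markers. The interneuron list is near 10 in Purkinje arrays of P3 and P7 and below 6.5 in both Stellate/Basket arrays of P56.

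Promoter sequences are shown for 3 members to set side by side the windows of Sst, 1 of the 3 members that fell from P3 to P56 in Purkinje arrays, Cck, the member that rose, and Cartpt, which was not called in any comparison. They are the 150 bases before the RefSeq start on build GRCm38.p6, written 5′ to 3′ on the strand of the gene: Sst at chr16:23890845-23890994, Cck at chr9:121495695-121495844 and Cartpt at chr13:99900684-99900833, all on the minus strand. Capitals mark TGACGTCA, the cyclic AMP response element to which the factor CREB binds, or its shorter core TGACG, on either strand.
Sst: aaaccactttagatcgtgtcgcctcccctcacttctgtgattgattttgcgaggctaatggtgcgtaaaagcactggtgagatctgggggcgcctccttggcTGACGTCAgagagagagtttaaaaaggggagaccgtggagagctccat
Cck: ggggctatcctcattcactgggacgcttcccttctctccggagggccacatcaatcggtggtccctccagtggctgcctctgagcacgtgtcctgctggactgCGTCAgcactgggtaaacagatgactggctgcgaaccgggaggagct
Cartpt: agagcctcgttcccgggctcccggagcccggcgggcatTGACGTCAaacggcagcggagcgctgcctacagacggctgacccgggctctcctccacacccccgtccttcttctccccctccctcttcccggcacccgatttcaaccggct
The longer element is absent from the Cck window, which holds only its core. It lies at positions -48 to -41 from the start in Sst and at -112 to -105 in Cartpt, and is found in 1.36% of the 32851 promoters of this length in the table. The core TGACG, searched on both strands and contained in the longer element, also lies in the windows of Cck, Tac1 and Vip, and in 13.3% of all windows. TATAAA, searched on both strands, lies in the Vip window and in 7.57% of all windows. The RefSeq promoter entries used here covered 7 of the 10 members and held none for Penk, Pnoc and Crh. The RefSeq spans of Sst and Cartpt reach upstream of the starts used here, to positions 23891342 and 99910179, so both printed windows lie within the gene spans. A match describes the letters of a window, and no binding to it was measured.

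At each age from P14 to P35, Cck was higher in Purkinje cells and Penk was higher in Stellate/Basket cells, and at P14 Pnoc was also higher in Stellate/Basket cells. In arrays labelled Purkinje, Penk, Sst and Pnoc fell and Cck rose between P7 and P14, together with the exchange of interneuron for Purkinje markers. Npy had group means of 6.01 to 6.86 except in Stellate/Basket P56, where it was 8.82-fold higher than in Purkinje cells of that age. Averaged over the 5 shared ages, 2 of 10 members were called between the cell types, where 11.5% of all genes were called. The median difference, Purkinje minus Stellate/Basket, was -0.06 over the members and 0.02 over all genes.

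**Figure D2:**
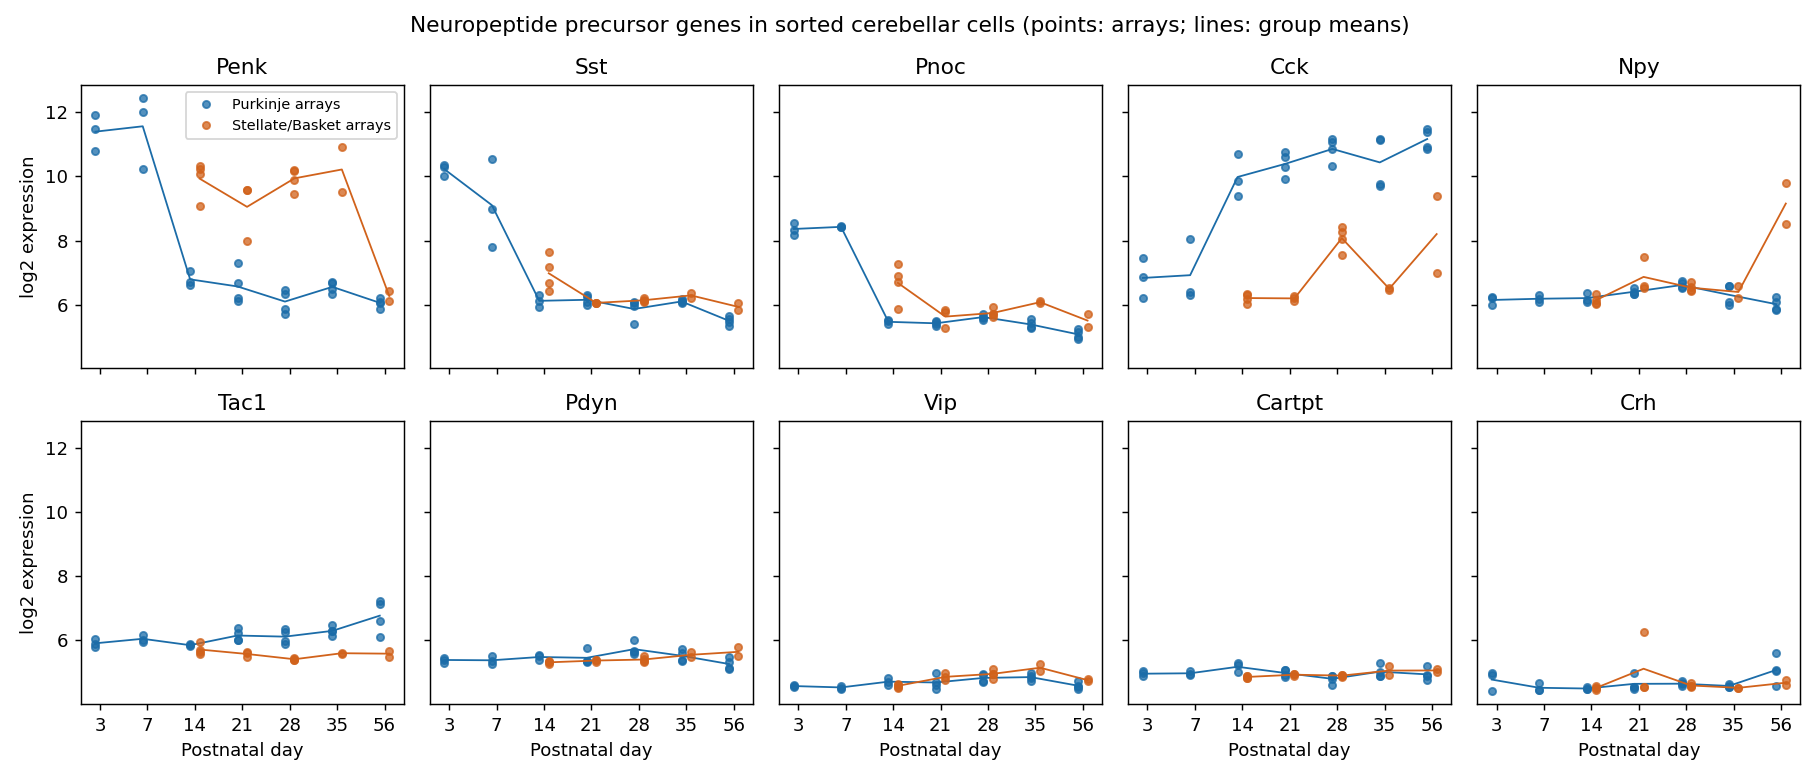
Log2 level of each neuropeptide precursor (vertical axes) by postnatal age (horizontal axis), with 1 point per array and lines through the group means of Purkinje and Stellate/Basket cells. Cck climbs in Purkinje arrays to a mean of 11.17 at P56, Penk drops from 11.56 to 6.79 between P7 and P14, and Npy is highest in the Stellate/Basket arrays of P56.

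Among the opioid precursors, Penk encodes proenkephalin, the source of the enkephalins that act on delta and mu opioid receptors. In the arrays labelled Purkinje, Penk read 11.90, 10.80 and 11.49 at P3 and 10.22, 12.45 and 12.02 at P7. It read 6.70, 6.61 and 7.05 at P14, and no array of P14 to P56 exceeded 7.30. All 6 arrays of P3 and P7 thus lay above all 19 later ones. Across Stellate/Basket arrays, Penk read 10.22, 10.34, 9.09 and 10.08 at P14 and 7.99, 9.58 and 9.58 at P21. It read 10.18, 9.90, 10.21 and 9.46 at P28, 9.52 and 10.92 at P35, and 6.10 and 6.44 at P56. Every Stellate/Basket array of P14 to P35 lay above every Purkinje array of the same ages, and the P56 arrays did not.

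Penk was lower in Purkinje cells by 3.14 ± 0.42 (adjusted p = 3.91e-07, limma) at P14, where 3 of 10 members and 13.3% of all genes were called. The difference was -2.48 ± 0.42 (adjusted p = 2.09e-05) at P21, with 2 members and 13.5% of genes called. At P28 it was -3.85 ± 0.38 (adjusted p = 1.45e-09), a 14.4-fold difference, with 2 members and 16.5% of genes called. At P35 it was -3.66 ± 0.47 (adjusted p = 5.01e-07), with 2 members and 11.4% of genes called. At P56 the difference was -0.21 ± 0.47 (adjusted p = 0.732) and was not called. The average over the 5 ages was -2.67 ± 0.19 (adjusted p = 2.29e-13), and -3.28 with P35 in place of P56 as the last age. Interneuron markers followed the same groups, high in the Stellate/Basket arrays of P14 to P35 and low in those of P56, and their part in the Penk values was not tested.

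Pdyn, which encodes prodynorphin, the source of the kappa receptor agonists called dynorphins, stayed close to its median of 5.39 in all 40 arrays. Its 12 group means spanned 0.46, and it was called in 0 of the 11 comparisons made. Pnoc encodes prepronociceptin, whose peptide nociceptin acts on the related receptor Oprl1. In Purkinje arrays Pnoc read 8.56, 8.18 and 8.34 at P3 and 8.43, 8.41 and 8.44 at P7, and 5.49, 5.52 and 5.38 at P14. From P14 to P56 no Purkinje array exceeded 5.72, so the earlier 6 arrays were separate from the rest. Pnoc in Stellate/Basket arrays read 6.70, 5.86, 6.88 and 7.26 at P14, and between 5.27 and 6.10 at the later ages. At P14 Purkinje cells were lower by 1.21 ± 0.18 (adjusted p = 3.27e-06), and all 3 Purkinje arrays lay below all 4 Stellate/Basket arrays. At P35 the Pnoc difference of -0.69 ± 0.20 had an adjusted p of 0.0141 but was under the size needed for a call.

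Sst encodes somatostatin, an inhibitory peptide that in the cerebellum is best known from Golgi cells and young Purkinje cells. In Purkinje arrays Sst read 10.36, 10.01 and 10.31 at P3 and 8.99, 7.79 and 10.54 at P7. At P14 it read 6.12, 5.94 and 6.30, and it was between 5.34 and 6.31 in all later Purkinje arrays. The P7 arrays were the most scattered, with a group SD of 1.38, yet the lowest of them was above every array of P14 to P56 from either cell type. Sst in Stellate/Basket arrays read 6.41, 6.67, 7.64 and 7.18 at P14, and 6.36 or less in all 11 later arrays. At P14 the Stellate/Basket arrays were all above the Purkinje arrays, by 0.86 ± 0.32 (adjusted p = 0.0498), which was under the size needed for a call. Without Stellate/Basket P14 replicate 1 the difference was -1.05 and was called.

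Cck encodes cholecystokinin, a gut and brain peptide that acts on the receptors Cckar and Cckbr. In Purkinje arrays Cck read 7.44, 6.85 and 6.20 at P3 and 8.05, 6.30 and 6.40 at P7. It read 9.85, 10.71 and 9.38 at P14, 10.29, 9.91, 10.77 and 10.59 at P21, and 11.17, 10.32, 10.86 and 11.08 at P28. All 19 Purkinje arrays from P14 on were above the 6 earlier ones. At P35 it read 11.12, 11.18, 9.76 and 9.69, and at P56 it read 10.93, 10.86, 11.39 and 11.48. The P35 arrays formed a high and a low pair, of which the low pair, replicates 3 and 4, also had low Xist. The 90th percentile of all probe sets was 9.19 and 9.14 in replicates 3 and 4, against 8.82 and 8.79 in replicates 1 and 2. The part of either in the Cck split was not tested.

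Stellate/Basket arrays gave Cck at 6.19, 6.32, 6.01 and 6.30 at P14 and 6.13, 6.25 and 6.20 at P21. It read 7.55, 8.04, 8.27 and 8.42 at P28, 6.53 and 6.46 at P35, and 9.40 and 7.00 at P56. The P28 arrays were all above those of P14, P21 and P35, and only P56 replicate 1 reached the lowest Purkinje arrays of P14 or later. The mean of the Purkinje markers in the P28 arrays was 10.33, against 8.74, 9.61 and 10.17 at P14, P21 and P35. The P56 replicate also had the higher mean of Purkinje markers, 12.43 against 10.99 in the other P56 array, and the part of these markers in the Cck levels was not tested. Cck was higher in Purkinje cells by 3.78 ± 0.44 (adjusted p = 3.64e-08) at P14 and by 4.20 ± 0.44 (adjusted p = 5.75e-09) at P21. It was higher by 2.78 ± 0.41 (adjusted p = 1.83e-06) at P28 and by 3.94 ± 0.50 (adjusted p = 3.92e-07) at P35. Over the 5 ages the mean was 10.57 in Purkinje and 7.03 in Stellate/Basket cells, a difference of 3.53 ± 0.21 or 11.6-fold (adjusted p = 9.62e-16). With P35 as the last age it was 3.68.

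Npy encodes neuropeptide Y, an inhibitory peptide of many cortical interneurons. In the 25 Purkinje arrays Npy was between 5.84 and 6.72, with a largest group mean of 6.61 at P28. In Stellate/Basket arrays it read 6.01, 6.06, 6.16 and 6.34 at P14, 6.58, 6.52 and 7.49 at P21, and 6.69, 6.41, 6.46 and 6.55 at P28. It then read 6.58 and 6.21 at P35 and 8.51 and 9.80 at P56. Both P56 arrays were above all other 38 arrays. At P56, where 3 of 10 members and 20.6% of all genes were called, Npy was lower in Purkinje cells by 3.14 ± 0.24 (adjusted p = 1.15e-11). The same 2 arrays had astrocyte and Bergmann glia markers at 10.73 and 11.18, interneuron markers at 6.45 and 6.47 and Purkinje markers at 12.43 and 10.99. In the 4 Stellate/Basket arrays of P28 the glial markers were at 10.54 to 10.65. The part of any of these marker shifts in the Npy level was not tested.

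Tac1 encodes preprotachykinin, the source of substance P and neurokinin A. Its brighter probe set was in Purkinje arrays between 5.80 and 6.47 from P3 to P35, and read 7.15, 6.12, 7.22 and 6.60 at P56. In Stellate/Basket arrays it was between 5.40 and 5.96 at all ages. At P56 the 4 Purkinje arrays were all above the Stellate/Basket arrays, which read 5.49 and 5.68, and the difference was 1.19 ± 0.19 (adjusted p = 7.49e-06), 2.28-fold. The other Tac1 probe set stayed between 5.07 and 5.90, and at P56 its difference was -0.22 ± 0.14 (adjusted p = 0.195 over 32918 probe sets). The probe sets thus differed in sign at P56, and with the mean of both the difference fell to 0.48 and was not called. At P21, P28 and P35 the brighter probe set differed by 0.58 to 0.71 in the same direction with non-overlapping arrays, under the size needed for a call.

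Cck at P56 was higher in Purkinje cells by 2.97 ± 0.50 (adjusted p = 2.13e-05), by 1.77 without Stellate/Basket replicate 3 and by 4.17 without replicate 1, so the members called at that age were Npy, Cck and Tac1. The median P56 difference was -0.19 over the members and -0.09 over all genes. Arrays of the cell types did not overlap, small differences included, for 6 of 10 members at P14, where the same held for 42.9% of all genes. This was so for 3 members at P21, against 39.5% of all genes, and for 4 at P28, against 40.6%. It was so for 7 members at P35, against 36.9% of all genes, and for 6 at P56, against 46.2%.

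**Figure D3:**
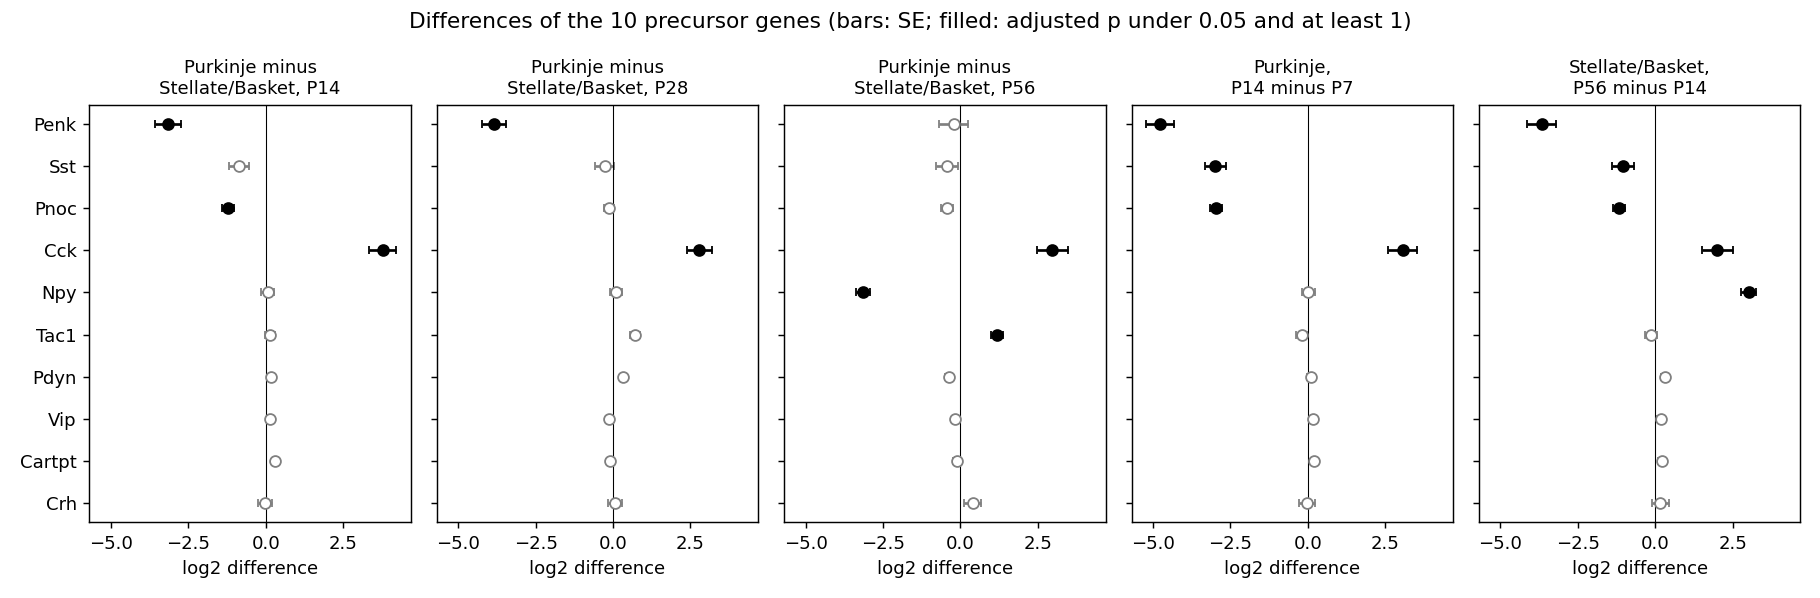
Log2 differences of the 10 members (points) with their standard errors (bars) on the horizontal axes, in the cell type comparisons at P14, P28 and P56, the Purkinje step from P7 to P14 and the Stellate/Basket P56 against P14 arrays; filled points were called. Cck and Penk lie on opposite sides of 0 between the cell types at P14 and P28, and Penk is at -0.21 at P56.

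The last 3 members lay near the bottom of the scale. Vip encodes vasoactive intestinal peptide, Cartpt the cocaine- and amphetamine-regulated transcript peptides, and Crh corticotropin-releasing hormone, which in the cerebellum is known mainly from climbing fibres that reach it from the inferior olive. Vip was between 4.47 and 5.26, with group means that spanned 0.62. It passed the filter for dim genes, log2 above 5 in at least 3 arrays, only through 3 Stellate/Basket arrays, at 5.11 in P28 and 5.03 and 5.26 in P35. Cartpt was between 4.61 and 5.30 with a span of 0.38, and 13 arrays were above log2 5. Crh was between 4.41 and 6.26. Its highest array was Stellate/Basket P21 replicate 1 at 6.26, whose companions read 4.55 and 4.54, and the Purkinje P56 arrays read 5.05, 4.57, 5.08 and 5.60. Crh passed the filter only through 4 arrays, the one at 6.26 and those at 5.05, 5.08 and 5.60. Together with Pdyn these genes were called in 0 of the 11 comparisons by limma. Unadjusted p-values under 0.05 occurred between the cell types for Pdyn at P28 and P56, Vip at P35 and in the average, and Cartpt at P14. In the changes from P14 to P56 they occurred for Cartpt and Crh in Purkinje cells, Pdyn in Stellate/Basket cells, and Pdyn and Cartpt in the difference between these. No share of all genes by unadjusted p is given beside them. Vip and Crh passed the filter through groups that these comparisons use, so their p-values are no support for a difference.

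With age, 4 of 10 members were called in arrays labelled Purkinje between P3 and P56, where 16.5% of all genes were called. Penk fell from a mean of 11.40 to 6.06, by 5.34 ± 0.42 or 40.5-fold (adjusted p = 4.51e-12). Sst fell from 10.22 to 5.50, by 4.73 ± 0.32 (adjusted p = 2.14e-13), and Pnoc from 8.36 to 5.07, by 3.29 ± 0.18 (adjusted p = 1.68e-15). Cck rose from 6.83 to 11.17, by 4.34 ± 0.44 (adjusted p = 1.76e-09). The early and late arrays did not overlap for these 4 genes and for Tac1, as for 43.2% of all genes, and Tac1 differed by 0.86 ± 0.16 (adjusted p = 8.75e-05) and was not called. The same 4 genes were called in a fit to only the Purkinje arrays with low Xist. They were also called in a fit to all arrays with high Xist, of both cell types, where Tac1 was called too, at 1.03. Without Purkinje P56 replicate 2 Tac1 was also called, at 1.08, as it was with array weights.

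The step from P7 to P14 held the larger part of these differences, and it shares the Purkinje arrays with the other comparisons. It was chosen because an earlier analysis of these data had seen most Purkinje change in it. Here 4 members and 12.7% of all genes were called. Penk fell by 4.78 ± 0.44 (adjusted p = 4.64e-10), Sst by 2.99 ± 0.34 (adjusted p = 3.42e-08) and Pnoc by 2.96 ± 0.19 (adjusted p = 1.71e-13). Cck rose by 3.06 ± 0.47 (adjusted p = 6.65e-06), and by 1.93 with only the Purkinje arrays of low Xist. In the same step 10 of 10 interneuron markers and 4 of 4 Golgi cell markers fell and 10 of 12 Purkinje markers rose. Sorcs3 stands in both the interneuron and the Golgi list, so these counts are not independent. The mean of the Golgi markers was 9.39 at P3 and 9.61 at P7 against 6.48 at P14, so a lower share of other inhibitory cells and a lower level within Purkinje cells cannot be told apart here.

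Between P14 and P56 in Purkinje cells 0 of 10 members were called by limma, against 1.69% of all genes called. By p alone, 5 members had an unadjusted p under 0.05, and no share of all genes by p alone is given beside this count. Tac1 differed by 0.92 ± 0.16 (adjusted p = 0.000362) and Cck by 1.19 ± 0.44 (adjusted p = 0.0687). Tac1 was called when each array was centred on its median, at 1.04, and without Purkinje P56 replicate 2, at 1.14. Cck was called without Purkinje P14 replicate 2, at 1.55, and its adjusted p fell below 0.05 at an equal difference without Purkinje P7 replicate 1 or either Stellate/Basket P56 array. Over these ages the Purkinje marker mean stayed between 12.58 and 12.81 and the interneuron marker mean between 5.64 and 5.74. The mean of the glial markers was between 6.62 and 7.50.

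In Stellate/Basket arrays 5 members were called between P14 and P56, where 18.7% of all genes were called. Npy was higher at P56 by 3.01 ± 0.24 (adjusted p = 1.69e-11) and Cck by 1.996 ± 0.50 (adjusted p = 0.0021). Penk fell by 3.66 ± 0.47 (adjusted p = 2.59e-07), while Pnoc and Sst were at -1.17 ± 0.20 (adjusted p = 3.31e-05) and -1.05 ± 0.36 (adjusted p = 0.0233). All 5 rest on the 2 P56 arrays with interneuron markers at 6.46 against 10.81 at P14, and with P35 as the last age 0 were called. With array weights the calls of Cck, Pnoc and Sst were lost, at adjusted p of 0.159, 0.0809 and 0.551. With P35 as the last age Npy differed by 0.25, Cck by 0.29, Penk by 0.29, Pnoc by -0.60 and Sst by -0.69. Without Stellate/Basket P56 replicate 1 the Cck difference was 0.80, against 3.20 without replicate 3, and the calls of Pnoc and Sst were lost too, at -0.97 and -0.94. Without P14 replicate 4, which had the highest Pnoc, Pnoc was at -0.98 and Sst at -0.98, and Sst was also lost without P14 replicate 3, at -0.83, without P56 replicate 3, at -1.16, and with only arrays of high Xist.

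How far the change from P14 to P56 differed between Purkinje and Stellate/Basket cells was tested next, and 3 members were called, against 20.1% of all genes. Npy changed less in Purkinje than in Stellate/Basket cells, by -3.20 ± 0.32 (adjusted p = 5.81e-09), and Penk fell less, by 2.93 ± 0.63 (adjusted p = 0.000663). The difference of Tac1 was 1.05 ± 0.25 (adjusted p = 0.00161), and its call was lost with the mean of its probe sets, at 0.30. It was also lost without Purkinje P56 replicate 1 (0.93) or 3 (0.90), Stellate/Basket P14 replicate 3 (0.97) or Stellate/Basket P56 replicate 1 (0.96). With P35 as the last age 0 members were called, Npy at -0.15 and Penk at -0.52. The difference of Cck was -0.81 and was not called, while without Stellate/Basket P56 replicate 3 it was -2.01 and called. That of Pnoc, 0.78, was called without Stellate/Basket P14 replicate 2, at 1.06.

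Across the 12 group means, Sst and Pnoc had the most similar patterns of the 5 members that spanned at least log2 2, with Pearson r = 0.97. Penk and Pnoc had r = 0.83 and Sst and Penk 0.75, while Cck and Penk were opposed at -0.85. Of all genes tested, Vash2, Epb41l4a and Top2a were closest to Sst, at 0.99, 0.99 and 0.99, and Myc, Fxyd6 and Ncaph to Pnoc, at 0.98, 0.98 and 0.98. Top2a, a topoisomerase of dividing cells, and Ncaph, a condensin subunit, are genes of the cell cycle. Closest to Cck were Pcsk6, a proprotein convertase, at 0.99, Dipk2a at 0.99 and Cds1 at 0.98. Closest to Penk were Olfm3 at 0.98, Jph3 at 0.98 and Bicra at 0.98. For Npy they were Dbx2 at 0.98, Rnaset2a at 0.97 and Slc7a2 at 0.97. These values describe 12 means that share arrays within each cell type and the marker shifts given above, and carry no test.

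In order of level, neighbouring groups overlapped in their arrays for most members. For Penk the order ran from Purkinje P7 and P3 through Stellate/Basket P35, P28, P14 and P21, and the only gap without overlap, of 2.26, lay between Stellate/Basket P21 and Purkinje P14. For Sst the largest gap, of 2.13, lay between Purkinje P7 and Stellate/Basket P14, and for Pnoc one of 1.68 lay between Purkinje P3 and Stellate/Basket P14. For Npy a gap of 2.29 set Stellate/Basket P56 apart from Stellate/Basket P21. Cck had its 5 highest means in the Purkinje groups of P14 to P56, and the next, Stellate/Basket P56 at 8.20, overlapped the lowest of these by the 1 array at 9.40.

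Of 22 receptor genes of these peptides listed, 21 were tested, and 0 were called by limma between the cell types at any age or in the average. Of all genes, 11.5% were called in the average and 20.6% at P56. By p alone, 6 receptors had an unadjusted p under 0.05 in the average. An adjusted p under 0.05 was reached by 4, at a difference under the size needed for a call. At P56 these counts were 10 and 9, and between the P14 and P56 arrays of Stellate/Basket cells they were 11 and 7. No share of all genes by p alone is given beside these counts. The largest average differences were 0.23 ± 0.04 for Npy1r and -0.22 ± 0.06 for Tacr3. In arrays labelled Purkinje, 1 of the 21 receptors was called between P3 and P56, against 16.5% of all genes. Between P7 and P14 it was also 1, against 12.7% of all genes. Both times this was Oprl1, the receptor of the Pnoc product. Its changes were -1.33 ± 0.39 (adjusted p = 0.00746) between P3 and P56 and -1.43 ± 0.42 (adjusted p = 0.0112) between P7 and P14. At P56 the median receptor difference was -0.33, against -0.09 over all genes.

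Among the enzymes and helpers of peptide processing, 11 of 12 were tested. In the average over ages 2 were called, both lower in Purkinje cells, against 11.5% of all genes called. Pcsk5, a convertase, was lower by 1.59 ± 0.10 and was at 4.83 to 5.06 in Purkinje cells from P14 on, against 6.82 to 7.08 in Stellate/Basket cells of P14 to P35. Pcsk1n, which encodes proSAAS, an inhibitor of the convertase Pcsk1, was lower by 1.23 ± 0.13. Pcsk1 itself was called at P28 only, higher in Purkinje cells by 1.29 ± 0.21, and Pam, the amidating enzyme, was lower there by 1.40 ± 0.15. At P56, 3 of the 11 were called, against 20.6% of all genes. Scg5, the chaperone of the convertase Pcsk2, was higher in Purkinje cells by 3.05 ± 0.37 and Cpe, the carboxypeptidase that trims the cut peptides, by 1.03 ± 0.19, while Pcsk1n was lower by 1.64 ± 0.32 (adjusted p = 0.000124). These P56 values rest on the 2 Stellate/Basket arrays that go against their label. The list's median in the average was 0.09, against 0.02 over all genes.

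Of 10 dense-core vesicle genes, all tested, 2 were called in the average, against 11.5% of all genes. Scg2, the granin secretogranin II, was higher in Purkinje cells by 2.42 ± 0.16, with means of 8.97 to 9.60 from P14 on against 6.53 to 7.04 in Stellate/Basket cells, and it was called at each of the 5 shared ages, with a difference of 2.69 ± 0.39 at P56. Cadps2, a priming factor for dense-core vesicle release, was lower by 1.02 ± 0.17. In arrays labelled Purkinje Cadps2 fell by 3.92 ± 0.37 between P3 and P56, and Vgf, a granin-like precursor, changed by -1.95 ± 0.24. At P56, 5 of the 10 were called, 4 higher and 1 lower in Purkinje cells, against 20.6% of all genes, of which 71.7% were higher. The higher genes were Cadps at 3.55 ± 0.65, Chga at 2.76 ± 0.31, Chgb at 2.69 ± 0.40 and Scg2, and the lower gene was Cadps2 at -1.29 ± 0.42. The 2 Stellate/Basket arrays behind these values had interneuron markers at 6.46 and Purkinje markers at 11.71. Cadps rests on 1 Stellate/Basket array, as the pair read 4.84 and 10.30.

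**Figure D4:**
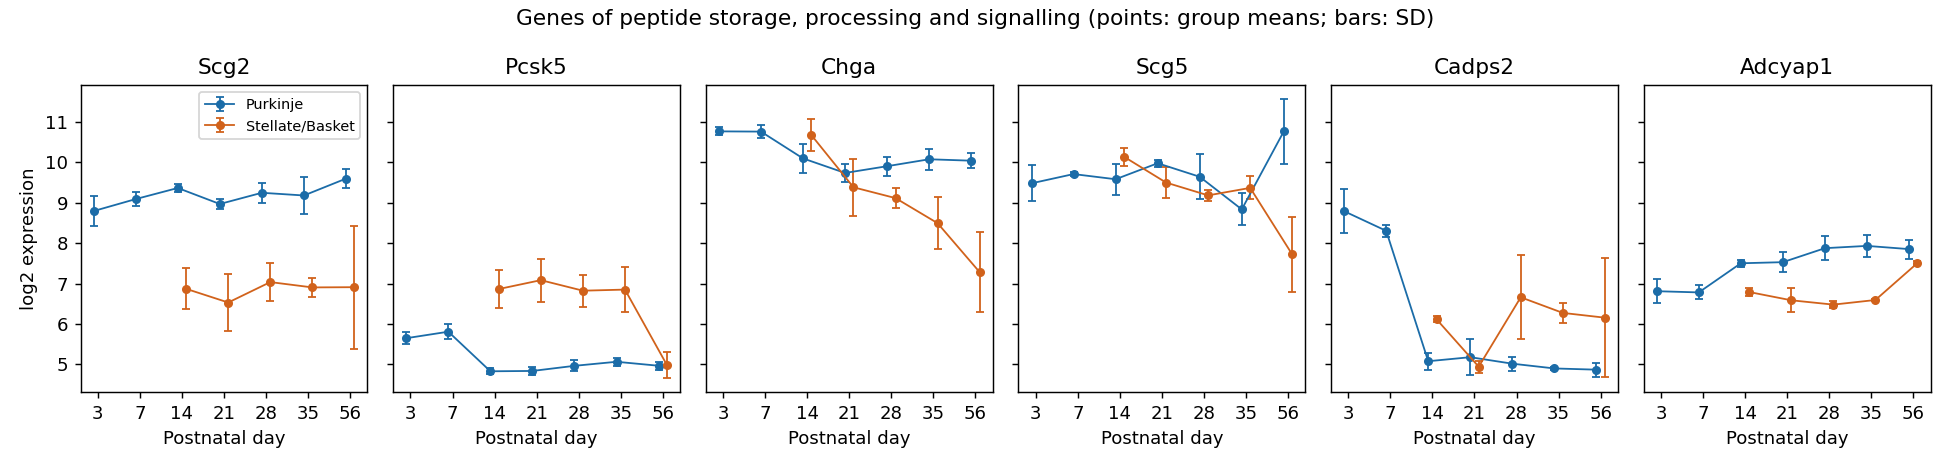
Mean log2 level (vertical axis) of Scg2, Pcsk5, Chga, Scg5, Cadps2 and Adcyap1 by postnatal day (horizontal axis) in Purkinje and Stellate/Basket cells, with bars for the SD over arrays. Scg2 runs from 8.79 to 9.60 over the Purkinje groups and from 6.53 to 7.04 over the Stellate/Basket groups, while Pcsk5 is lower in Purkinje cells until P35 and near 5 in both at P56.

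Of 28 further neuropeptide precursors, 22 were tested, and 0 were called by limma in the average over ages, against 11.5% of all genes. By p alone, 14 had an unadjusted p under 0.05 and 12 an adjusted p under 0.05. No share of all genes by p alone is given. Adcyap1, which encodes the peptide PACAP, had the largest average difference, 0.95 ± 0.08 higher in Purkinje cells. It was called at P28, at 1.40 ± 0.15, and at P35, at 1.34 ± 0.19, and rose by 1.04 ± 0.16 between P3 and P56 in arrays labelled Purkinje. Nppc, which encodes C-type natriuretic peptide, was higher in Purkinje cells at P14 by 1.34 ± 0.23 and fell by 1.02 ± 0.23 between P3 and P56, where the P3 arrays go against their label. At P56, Pomc and Adm were higher in the Stellate/Basket arrays, with differences of -1.52 ± 0.23 and -1.15 ± 0.18, in the same 2 arrays as the Npy values. The median of the 22 genes in the average was 0.02, the same as over all genes.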

How the data were processed

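Purkinje and Stellate/Basket cells were profiled on Affymetrix MOE430.2 arrays after 2 rounds of amplification, per the labels. The authors deposited normalized log2 values for each probe set. R 2.9.1 and GCRMA appear in the submitters' processing notes, with no role or order given in the sources used here. The 2 columns equal to the mean of others within 1e-08 were left out. Of the probe sets, 34958 carried 1 symbol, and each gene was represented by the one with the highest mean. Genes above log2 5 in at least 3 arrays were kept. The test was limma 3.58.1 (R 4.3.3) fitted over all 12 groups, so groups with 2 arrays are assumed to vary like the others, and their fold changes on this normalized scale may be compressed at low levels. Figures used Python 3.11.15 and matplotlib 3.10.9. The scripts' calls were tested on simulated data. The labels call the replicates biological, and precision is limited by how many arrays there are.

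All members were named. Of each list, up to 3 called genes in each direction with the largest difference were picked, or the 2 largest where none was called. Not all of these are given above, while Scg2 at P56 was given beyond them. Called genes left out include Scg3 at P28 (-1.68 ± 0.15), Pam at P35 (-1.38 ± 0.19) and Chga at P35 (1.58 ± 0.31), Purkinje minus Stellate/Basket. Uncalled receptors left out include Sstr2 at P56 (-0.97 ± 0.27). Members and lists were chosen with earlier results of these data known. Alternatives covered the filter, the summary of probe sets, centring, quantile normalization, array weights, the variance model, the replicate number as a block, Xist and the 90th percentile as covariates, the first and last age, all 42 columns and leaving out each array. Fits to arrays of low or high Xist and of P14 to P35 only were added after the data were seen.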

Additional observations from a re-analysis of the deposited data

Results flagged for a closer look

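In 66 sets of 4 arrays of 1 probe set and group, 4 had an array far from the rest, and about 1 in 20 would by chance. Purkinje P21 replicate 1 was the highest array for Pdyn, at 5.77 against 5.34 to 5.36 in the other arrays of its group. The same array was the highest for the dimmer Tac1 probe set, at 5.73 against 5.27 to 5.28, and for Crh, at 4.99 against 4.48 to 4.56. All 3 probe sets are near the bottom of the scale. Stellate/Basket P28 replicate 3 was the highest for the brighter Tac1 probe set, at 5.44 against 5.40 in the other arrays.

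The change from P14 to P56 differed between the cell types for 3 members in limma's test of that difference. It was -3.20 for Npy, 2.93 for Penk and 1.05 for Tac1, Purkinje minus Stellate/Basket. The Npy and Penk values rest on the 2 Stellate/Basket P56 arrays, whose interneuron markers were at 6.46.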

How the results depend on the processing

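Of 110 pairs of a member and a comparison, 30 were called, and 74 were called under no alternative, 24 of these with a change of sign. The calls of Cck and Penk between the cell types from P14 to P35 and of Sst, Cck, Penk and Pnoc in Purkinje cells from P3 to P56 and from P7 to P14 held under each alternative run and without each array. For Purkinje P14 to P56 the members called went from 0 to 1 with each array centred on its median and to 2 with array weights, and ranged from 0 to 1 without single arrays. For Stellate/Basket P14 to P56 they went from 5 to 2 with array weights, which left Npy and Penk, and to 0 with P35 as the last age, and ranged from 2 to 5 without single arrays. For the difference between these changes they went from 3 to 0 with P35 as the last age. Penk then changed sign, to 0.29 in Stellate/Basket cells and to -0.52 in the difference, and Cck in the difference went from -0.81 to 0.17, to 0.39 without Stellate/Basket P56 replicate 1 and to -2.01 without replicate 3. The cause was not tested.

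Pooled over all groups, 191 same-numbered pairs of arrays from different groups had a median correlation of deviations of -0.004, against -0.002 in 539 other pairs. The same-numbered pairs ran from -0.47 to 0.34, and 37 were over 0.1. Pairing between particular groups was not tested. With a replicate block the members called were 2 in the average over ages, 3 at P14 and 4 for P3 to P56, as without it.

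Each probe set tested on its own gave 3384 calls in the average, 10.3% of 32918 probe sets, against 2009, 11.5% of 17478 genes, so that the larger count is over more features. Counts over all genes moved by more than 1.5 times with the mean of probe sets (1332 against 2009), array weights (1766 against 3599 at P56), the 90th percentile as a covariate (2040 at P56) and P35 as the last age (966 against 3275 in Stellate/Basket cells). Without Purkinje P14 replicate 3, 186 genes were called for Purkinje P14 to P56. The share of called genes that were higher was 71.7% at P56 and 58.9% after quantile normalization, 34.5% and 45.0% for the change in Stellate/Basket cells, 64.9% and 52.4% for the difference between the changes, and for Purkinje P14 to P56 it was 77.0% and 89.2% after centring. Levels near log2 5 leave changes of Vip, Cartpt and Crh beyond what these arrays can show.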
